A study of Arabidopsis thaliana with 12 samples.

Results

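The comparison described here sets the pmr5 pmr6 double mutant of Arabidopsis thaliana against its wild type, the accession Col-0, and is formed by 6 of the 12 arrays of the series, 3 of each genotype, chosen by the genotype in the sample titles. Each array measured transcript levels in rosettes of untreated plants that were 3 weeks old and had grown at 22 °C with 14 h of light, from 15 µg of total RNA. The other 6 arrays hold the single mutants pmr5 and pmr6, again 3 of each, and are used for the shared estimate of spread and to show where the single mutants stood. The labels name neither the mutant alleles nor the number of plants behind an array. They call the replicates biological and do not say what was kept separate, so each p-value reflects only how these samples spread, which may in part be technical. In bulk rosette RNA, a change in the share of a cell type and a change of RNA per cell cannot be told apart.

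Both mutations were found in screens for plants that resist powdery mildew, a fungus that must grow on living epidermal cells. PMR6 encodes a pectate lyase-like protein, of a family of enzymes that can cleave the pectin of the cell wall. PMR5 belongs to the TRICHOME BIREFRINGENCE-LIKE family, whose members act on the acetylation of wall polysaccharides. Loss of either alters the pectin of the leaf wall, and the resistance was reported not to need the salicylic acid or the jasmonate and ethylene pathways that underlie many defences. The comparison asks which rosette transcripts change, without infection, when both genes are mutated together.

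No gene could be named. The deposited row identifiers bore little relation to the intensities. For 179 row pairs that share a gene by their identifiers, mean log2 levels correlated at r = 0.06, and moving the identifier column by every whole offset of up to 200 rows in either direction gave no more than 0.42, at an offset that was not the one with the highest agreement of the profiles over the 12 arrays. Reversing the identifiers, a trial added after seeing the data, gave no more than 0.41. No order was therefore shown to be the right one, and each row is treated as a probe set (a group of oligonucleotides for 1 transcript) of unknown identity. The transcripts of PMR5 and PMR6 could not be looked at, and neither could the labelled tissue be checked against its marker genes. Probe sets are called H1 to H12 for the increases and L1 to L12 for the decreases, by size of change, with their row number in the deposited table.

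Of 17060 probe sets tested, 3285 differed between pmr5 pmr6 and Col-0 (limma, Benjamini-Hochberg adjusted p under 0.05), which is 19.3% of those tested. Higher in the double mutant were 1685 (9.88%) and lower were 1600 (9.38%). The numbers in each direction were close, and the sizes were not. Increases reached further than decreases: the median fold was 1.55 among the increases and 1.39 among the decreases, and 90% of each lay below 3.02-fold and 1.86-fold. All folds are on the scale of log2(intensity + 28), which understates changes of dim probe sets. At least 2-fold higher were 450 called probe sets and at least 2-fold lower were 115. At 4-fold the counts were 74 and 1, and at 8-fold they were 7 and 0. The smallest change called was 1.15-fold in either direction. The last probe set inside the threshold changed by -0.24 on the log2 scale (SE 0.08, limma adjusted p = 0.04995) and the first outside it by 0.46 (SE 0.16, limma adjusted p = 0.05001).

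**Figure D1:**
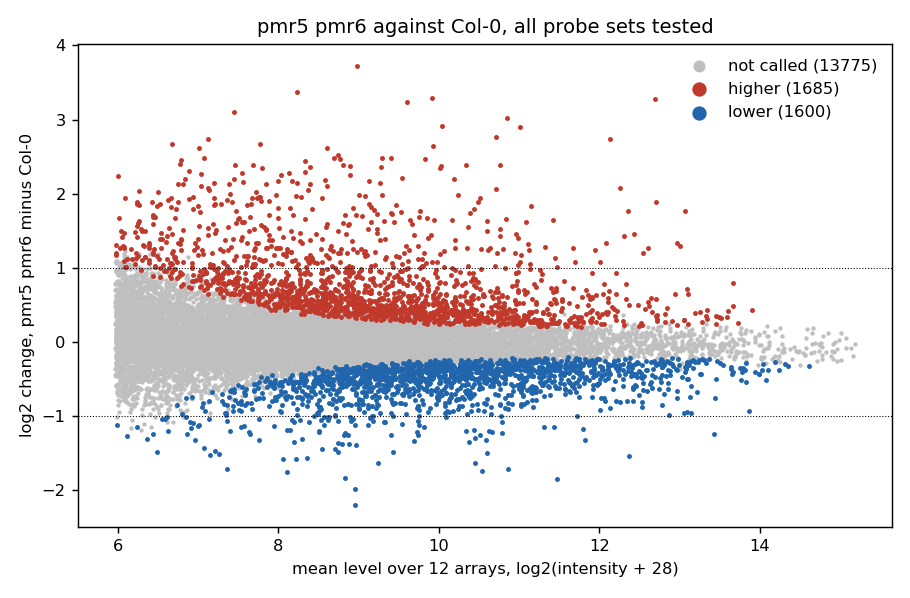
Each point is 1 of the probe sets tested, with its mean level over the 12 arrays as log2(intensity + 28) on the horizontal axis and its log2 change from Col-0 to pmr5 pmr6 on the vertical axis. The 1685 called increases are red, the 1600 called decreases blue, and the dotted lines mark 2-fold; above the upper line lie 450 called increases and below the lower line 115 called decreases.

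The direction of the changes differed with the level of the probe set. Among the brightest 25% of the probe sets, with mean intensities from 789 upward, 949 were lower and 610 higher. Among the dimmest 25%, with intensities from 34.8 to 124, 31 were lower and 190 higher. The next level up held 370 higher and 152 lower, and the one above it 515 and 468. The share called rose from 5.18% in the dimmest to 36.6% in the brightest 25%, while the median standard error of a change fell from 0.34 to 0.09 on the log2 scale. The small changes called were mostly those of bright probe sets: the median increase called was 2.3-fold in the dimmest 25% and 1.34-fold in the brightest. Changes of at least 2-fold leaned upward at every level, with 138 increases and 22 decreases in the dimmest 25% and 87 and 30 in the brightest. Called increases had a median intensity of 395 in Col-0 and 677 in the double mutant, and called decreases 1199 and 831.2. Over all rows, the median intensity was 172.5, 168.45 and 175.2 on the Col-0 arrays and 187.05, 177.4 and 190 on the double mutant arrays. The 95th percentiles were 3025, 3011 and 2987 against 2938, 2925 and 2897. The pmr5 arrays were more like those of the double mutant, with medians of 188.2, 176.45 and 180.75 and 95th percentiles of 2893, 2967 and 2915. The pmr6 arrays were more like those of Col-0, with medians of 174.8, 169.9 and 172.4 and 95th percentiles of 3015, 3002 and 2997. With quantile normalization 1603 probe sets were called higher and 1762 lower. What part these differences between whole arrays had in the lean by level was not tested.

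The values of the 2 genotypes were mostly separate where a call was made. The 3 double mutant arrays lay above all 3 Col-0 arrays in 1633 of the 1685 increases, and below all of them in 1553 of the 1600 decreases. Over all probe sets tested, called or not, such a separation was found in 32.3%, upward in 16.8% and downward in 15.5%. Each hybridization run held 1 array of each genotype, so the change can also be read within a run. The called increases had median log2 changes of 0.64, 0.67 and 0.6 in runs 1, 2 and 3, and the called decreases -0.47, -0.49 and -0.5. These arrays also made the calls. Where the calls were made from the other 2 runs, the median log2 change of the increases in the run left out was 0.68, 0.82 and 0.57, against 0.81, 0.84 and 0.76 in the runs that made the calls. For the decreases it was -0.47, -0.54 and -0.47, against -0.58, -0.57 and -0.55. The changes in a run that had no part in the choice were thus smaller in each of these 6 cases, and in the same direction.

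The array of pmr5 pmr6 replicate 3 departed more from the other arrays of its genotype than any other array did. Its median absolute difference from the mean of replicates 1 and 2 was 0.19 on the log2 scale, against 0.14 to 0.17 on the other 11 arrays. The difference was greatest among dim probe sets, at 0.45 in the dimmest 25%, where the others ran from 0.28 to 0.41. In the brightest 25% it was 0.1, within the range of the others (0.08 to 0.11). Its 5th percentile of intensity was 9.2, close to the 9.6 of pmr5 replicate 1, against 3 to 5 on the other 10 arrays. With any 1 of the other Col-0 or double mutant arrays left out, 2619 to 2958 probe sets were called. Without replicate 3 of the double mutant there were 3003, 1556 higher and 1447 lower. Of these, 2678 were also called with it, all in the same direction, which is 81.5% of the calls with it and 89.2% of those without it. The 607 calls lost without the array kept their direction, and 325 calls were gained. The fits with and without replicate 3 share all other arrays, which favours such agreement. At least 2-fold changes were 491 upward and 128 downward without it, and the median folds were 1.62 and 1.43. The lean upward of dim and downward of bright probe sets held as well, with 162 higher and 43 lower in the dimmest 25% and 566 higher and 849 lower in the brightest.

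**Figure D2:**
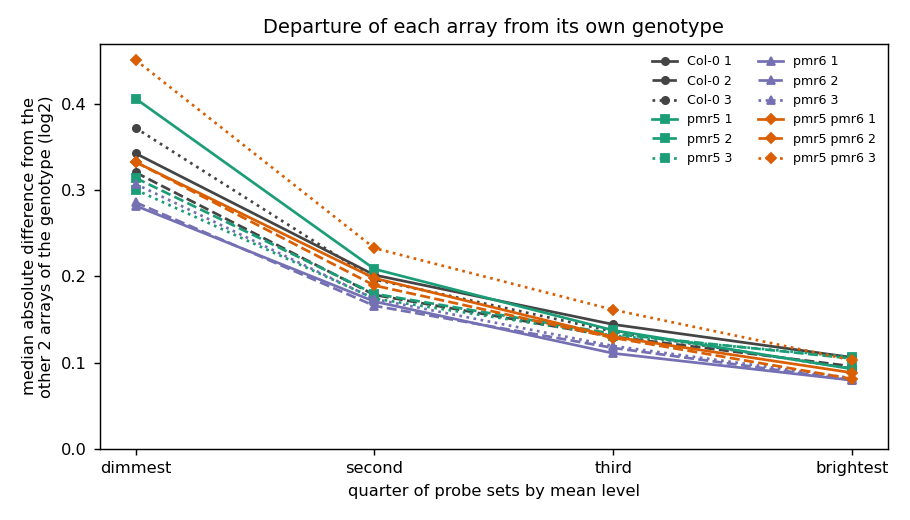
For each of the 12 arrays, the median absolute log2 difference from the other 2 arrays of its genotype is plotted for 4 equal classes of probe sets by mean level. The dotted orange line, pmr5 pmr6 replicate 3, starts highest at 0.45 and meets the others in the brightest class, at 0.1.

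**Figure D3:**
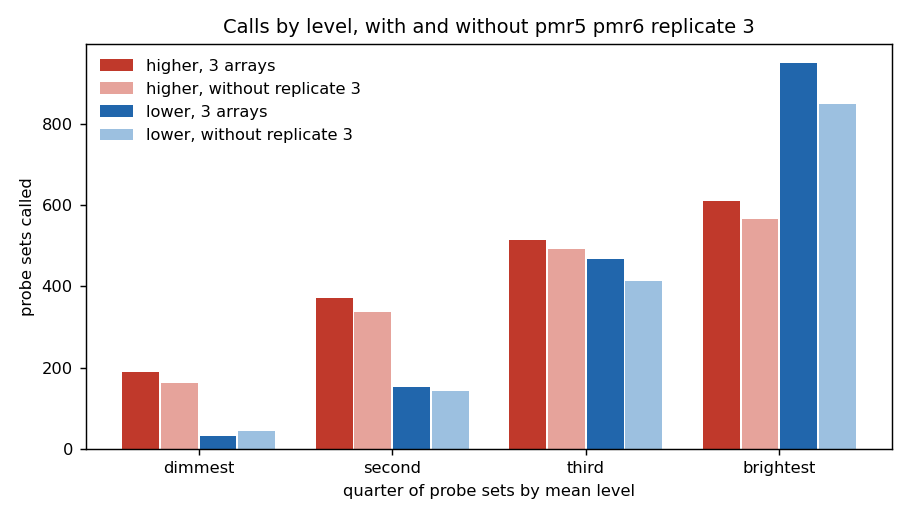
Bars give the number of probe sets called higher (red) or lower (blue) in pmr5 pmr6 than in Col-0 in each of 4 equal classes by mean level, with all arrays (dark) and without pmr5 pmr6 replicate 3 (light). Increases outnumber decreases in the dimmest class (190 and 31) and decreases outnumber increases in the brightest (949 and 610), and the light bars keep both leans.

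The 12 largest increases ran from 6.65-fold to 13.2-fold, from probe sets at a mean intensity of 27.4 in Col-0 to one at 2438. In H1 (row 13224) the Col-0 arrays read 119.5, 130.4 and 89.4 and those of the double mutant 2372.8, 2108.8 and 1205.5. The lowest double mutant array, replicate 3, was still far above the highest of Col-0. The log2 change was 3.72 (SE 0.21, limma adjusted p = 2.3e-10), and 4.02 without that array. The single mutants lay between, at 388 ± 85.5 in pmr5 and 605 ± 126 in pmr6 (mean ± SD, n = 3 each).

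H4 (row 1343) was the brightest of the 12. It read 4508.6, 1672.4 and 1132.9 in Col-0 and 20593.4, 18390.8 and 21226.1 in the double mutant (log2 change 3.27, SE 0.28, limma adjusted p = 4.7e-08). The double mutant arrays were close together and the Col-0 arrays were not, replicate 1 being far above the others. In pmr5 it stood at 10033 ± 2022 and in pmr6 at 4704 ± 331 (mean ± SD, n = 3 each).

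H7 (row 21342) read 769.8, 482.6 and 417.6 in Col-0 against 5076.1, 5006.2 and 3779.3 in pmr5 pmr6. H9 (row 15088) read 762.3, 659 and 726.3 against 6319.5, 5540.8 and 4812.8. H10 (row 11946) read 779.1, 622.5 and 407.1 against 4549.4, 4155.9 and 3677.5. In these probe sets every double mutant array was several-fold above every Col-0 array. The Col-0 arrays were close together in H9 and less so in H7 and H10, where replicate 1 was the highest. Their log2 changes were 3.02, 2.9 and 2.76, with SEs of 0.18, 0.15 and 0.15 (limma adjusted p = 3.6e-10, 1.8e-10 and 2.0e-10), and H9 had the smallest adjusted p of all 24 probe sets described.

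H5 (row 2300) and H9 stood nearer the double mutant in pmr6 than in pmr5. H5 read 303, 139.4 and 266.5 in Col-0, 324, 518.5 and 483.6 in pmr5, 1016, 1069.3 and 1903.7 in pmr6, whereas the double mutant gave 2802.5, 2174.8 and 2146.8. No array of one genotype overlapped with the next in this order. H2 (row 10373) showed the other order: it read 230, 86.2 and 13 in Col-0, 147.8, 147 and 92.7 in pmr6, 553.7, 413.9 and 347 in pmr5, and 1457.4, 809.4 and 1045.6 in pmr5 pmr6. Its Col-0 and pmr6 arrays overlapped. Its log2 change of 3.37 (SE 0.4, limma adjusted p = 2.4e-06) moved to 4.01 without Col-0 replicate 1 and to 2.68 without Col-0 replicate 3.

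H3 (row 7140) read 484.8, 235 and 95 in Col-0 and 2968.5, 2117.6 and 2419.8 in the double mutant. H8 (row 1660) read 635, 231.7 and 251.3 against 3168.9, 2532.6 and 2499.2. H12 (row 15793) read 3055.9, 1108.3 and 744.5 against 10893.2, 8295.4 and 8748.1. In all of these Col-0 replicate 1 was the highest Col-0 array, and the double mutant arrays were above it. The log2 changes were 3.3, 2.92 and 2.73 (SE 0.32, 0.24 and 0.3; limma adjusted p = 2.1e-07, 2.6e-08 and 1.1e-06). The dimmest of the 12 were H6 (row 7623) and H11 (row 8741). H6 read 157.1, 5.9 and 34.4 in Col-0 against 629.5, 434.7 and 777 in pmr5 pmr6, and its log2 change of 3.1 (SE 0.39, limma adjusted p = 6.2e-06) ran from 2.54 to 3.77 as 1 array at a time was left out. The low value was that without Col-0 replicate 2 and the high one that without Col-0 replicate 1. H11 read 52.4, 28.2 and 1.6 against 420, 334.7 and 217.3 (log2 change 2.74, SE 0.31, limma adjusted p = 1.5e-06). With 4 in place of the 28 added before taking logs, the log2 changes of H6, H11 and H2 were 3.93, 3.87 and 3.92. With 100 they were 2.18, 1.73 and 2.62, so their sizes and ranks depend on this constant.

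**Figure D4:**
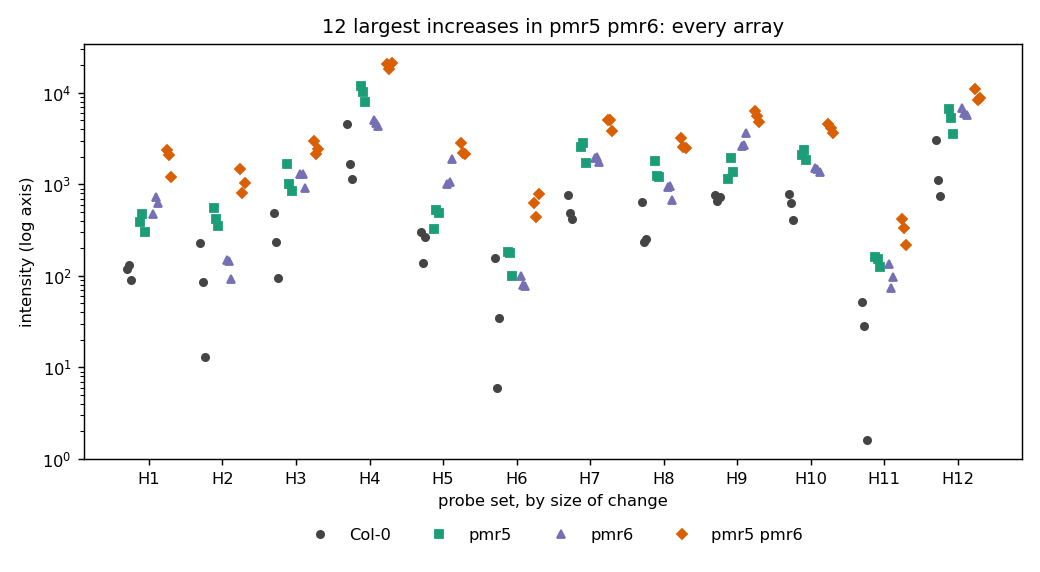
Intensity on a log axis of every array for H1 to H12, with Col-0 as grey circles, pmr5 as green squares, pmr6 as purple triangles and pmr5 pmr6 as orange diamonds. In all 12 probe sets the 3 orange points lie above every point of the other genotypes, and in several the Col-0 points are spread widely with replicate 1 at the top.

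Replicate 1 stood high in these probe sets in more than one genotype. Among the 12 increases the highest Col-0 array was replicate 1 in 11, by a median of 1.14 on the log2 scale over the mean of the other Col-0 arrays, and the highest double mutant array was replicate 1 in 10, by a median of 0.34. It was the highest array in 7 of the 12 in pmr5 and in 6 of the 12 in pmr6. Among the 450 increases of at least 2-fold, replicate 1 was the highest array of Col-0 in 61.1% and of the double mutant in 59.1%, and for pmr5 and pmr6 the shares were 47.6% and 34.4%. Over all probe sets tested it was the highest array of Col-0 in 34.8% and of the double mutant in 33.3%, with 37.4% and 33.6% for pmr5 and pmr6. Replicate 1 of every genotype was hybridized in run 1. What part the run had in the levels of these probe sets was not tested. With the run as a block the log2 changes were the same, as they must be in a balanced design, and all 12 kept adjusted p-values of 3.1e-06 or less (limma). Within the runs the 12 changes lay between 1.82 and 4.71 on the log2 scale.

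Decreases were smaller. The 12 largest ran from 2.99-fold to 4.59-fold, and the highest of them in Col-0 stood at a mean intensity of 5771. L1 (row 6124) read 907.2, 1123.6 and 1055.7 in Col-0 and 230.7, 167.4 and 211 in the double mutant (log2 change -2.2, SE 0.13, limma adjusted p = 3.6e-10). The groups were far apart, and pmr5 at 404 ± 46 and pmr6 at 566 ± 22.1 (mean ± SD, n = 3 each) lay between them. L3 (row 10914), the brightest, read 5585.9, 5645.3 and 6081.9 in Col-0 against 1485.9, 1661.6 and 1614.3 in pmr5 pmr6 (log2 change -1.84, SE 0.12, limma adjusted p = 1.6e-09), and its change within the 3 runs lay between -1.9 and -1.75.

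L8 (row 14399) read 3135.6, 3505.9 and 2985.4 in Col-0 against 897.3, 942.8 and 1030.8 in pmr5 pmr6. L9 (row 12641) read 2226.7, 2337 and 2453.5 against 604.3, 838.2 and 770.3. L6 (row 12144) read 2613.5, 3392.4 and 2416.8 against 712.5, 806.3 and 922.6. In these bright probe sets every double mutant array, replicate 3 included, was far below every Col-0 array. The double mutant arrays were close together in L8 and less so in L9 and L6. The log2 changes were -1.72, -1.64 and -1.74, with SEs of 0.1, 0.1 and 0.13 (limma adjusted p = 3.6e-10, 7.2e-10 and 1.1e-08).

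L2 (row 15595) differed from the others in its single mutants. It read 670.9, 807.1 and 643.9 in Col-0, 561.6, 671.2 and 808.9 in pmr5, 498.3, 617.5 and 771.2 in pmr6, whereas the double mutant gave 175.4, 80.7 and 260.1. The arrays of Col-0 and of both single mutants overlapped, and all 9 lay above the double mutant. Its change from pmr5 was -1.92 and that from pmr6 -1.8 on the log2 scale (limma adjusted p = 5.8e-05 and 7.3e-05), close to the -1.98 from Col-0 (SE 0.24, adjusted p = 2.7e-06). L10 (row 2645) and L5 (row 16493) showed another order. L10 read 1138.4, 959.2 and 1334 in Col-0, 344.5, 442.8 and 441.2 in pmr5, 541.7, 630.8 and 962.9 in pmr6, whereas the double mutant gave 387, 370.2 and 287.7, so that the arrays of pmr5 and the double mutant overlapped. L5 read 546.4, 602.6 and 515.4 in Col-0, 145.1, 205.7 and 171.5 in pmr5 and 95.7, 154.1 and 201 in pmr5 pmr6, which overlapped too. The difference of the double mutant from pmr5 was -0.22 for each on the log2 scale, with limma adjusted p = 0.61 and 0.66, which does not show that the levels were alike.

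Among the 12 decreases, L7 (row 11492) moved most when 1 array was left out. It read 249.4, 247.5 and 267.2 in Col-0 and 81.5, 129.1 and 8.6 in the double mutant, replicate 3 being by far the lowest. Its log2 change of -1.72 (SE 0.35, limma adjusted p = 0.001) was -1.11 without that array (SE 0.22, adjusted p = 0.0012). L4 (row 5739), L11 (row 9549) and L12 (row 11360) had log2 changes of -1.84, -1.58 and -1.58 (SE 0.14, 0.23 and 0.23; limma adjusted p = 1.1e-08, 2.5e-05 and 3.5e-05). All 24 probe sets, chosen with replicate 3 included, were also called without it. Their changes then ran from 2.77 to 4.02 among the increases and from -2.3 to -1.11 among the decreases.

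**Figure D5:**
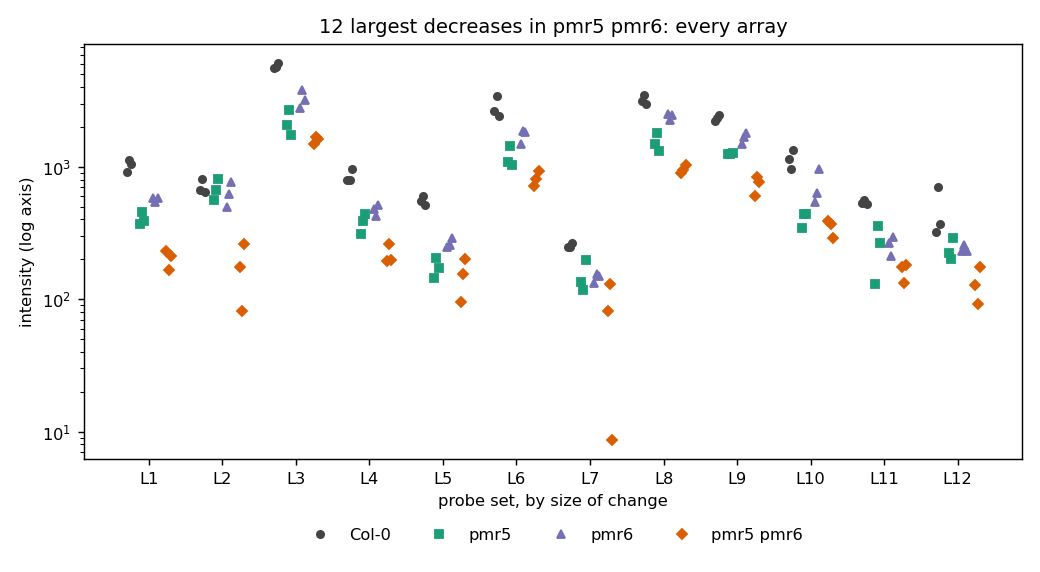
Intensity on a log axis of every array for L1 to L12, with the same symbols for the 4 genotypes as for the increases. The 3 orange points of pmr5 pmr6 lie below every Col-0 point in all 12 probe sets and below every point of both single mutants in 8 of them; in L2 only the double mutant is low.

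The single mutants stood between Col-0 and the double mutant in the mean of all 24 probe sets, as they did in 83.1% of all called increases and 84.2% of all called decreases. Among all probe sets tested, called or not, they did so in 33.6% of those higher and 34.4% of those lower in the double mutant. All 3 double mutant arrays lay beyond every single-mutant array in all 12 increases and in 8 of the 12 decreases. Over all probe sets tested this was so upward in 5.58% and downward in 5.12%, and among the calls in 38.5% of the increases and 37.8% of the decreases. The 24 and the calls were chosen for their changes from Col-0 to the double mutant, which by itself favours such places. These counts and shares are therefore a description. The double mutant differed from pmr6 in 11 of the increases and 10 of the decreases, and from pmr5 in 7 and 6 (limma, adjusted p under 0.05). Over all probe sets tested, 4.13% were higher and 4.13% lower than in pmr6 (8.26% in all), and 1.86% higher and 1.34% lower than in pmr5 (3.2% in all). Among the 24 described, those called against pmr5 were also called against pmr6. pmr5 was the single mutant nearer to the double mutant in 7 of the 12 increases and 10 of the 12 decreases, and in 68.8% and 71.9% of all calls against Col-0. Among all probe sets tested, called or not, it was the nearer in 64.2% of those higher and 51.5% of those lower than in Col-0. For the increases the share among the calls was thus close to that over all probe sets. The pmr5 arrays also had higher median intensities over all rows than the pmr6 arrays, and what part this had in these shares was not tested. H12 differed from neither single mutant by the test, with adjusted p = 0.14 and 0.29, and neither did L7 (0.13 and 0.076) or L11 (0.35 and 0.13).

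Among all 3285 calls, 205 of the 1685 increases and 170 of the 1600 decreases were called in the same direction against pmr5 and against pmr6 as well. These probe sets, in which the double mutant differed from every other genotype by this model, are 12.2% and 10.6% of the calls against Col-0. They were found among 17060 probe sets tested. Their numbers depend on the model: without the variance trend only 99 probe sets in all were called higher than pmr5 and 41 lower. The comparisons share the double mutant arrays. An increase over Col-0 was called a decrease from pmr5 in 1 probe set and from pmr6 in 2, and no decrease was called an increase. The 546 calls against pmr5 rest on single arrays more than those against Col-0: they were 270 when pmr5 replicate 3 was left out, and 263 and 341 when replicates 1 and 2 of the double mutant were. The 1409 calls against pmr6 were 773 when pmr6 replicate 3 was left out, and 818 and 939 when replicates 1 and 2 of the double mutant were.

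Few probe sets went from a low to a clearly higher level. With under 50 on all Col-0 arrays taken as low and over 200 on all double mutant arrays as high, bounds set after seeing the data, 4 rows qualified, all called, and no row did so in the opposite direction. Row 17515 read 26.1, 32.9 and 6.9 in Col-0 and 316.8, 268.1 and 230.5 in the double mutant. Row 7713 read 28, 31.7 and 26.8 against 232.8, 215 and 290, and row 17165 read 32.2, 47.6 and 45.7 against 286.2, 339 and 220.5. The fourth, row 7488, read 33.3, 36.4 and 3.8 against 254.3, 241 and 212.5. The single-mutant arrays read from 44 to 221.6 over the 4 rows and lay between these levels, except that 1 pmr5 array of row 17165 was just above the lowest double mutant array. Without detection calls in the table, absence of these transcripts from Col-0 could not be judged.

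In every run Col-0 was processed on fluidics module 1 and pmr5 pmr6 on module 4, so module and genotype cannot be told apart. For replicate 2 of the double mutant the instrument record also shows an aborted staining. Without that array 2721 probe sets were called, 1339 higher and 1382 lower.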

How the data were processed

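Arrays were ATH1, per the instrument records. The authors deposited a table of 22810 rows with a linear intensity for each array; the software and its settings are not given in the sources used here. As read from the values, arrays were scaled to a common level, with a trimmed mean (2% at each end) of about 500 on each, and no further normalization was applied. The labels' protocols give biotin labelling of cRNA. The 64 rows with AFFX (control) identifiers as deposited, which need not hold the controls, were left out. So were the dimmest 25% of the rest by mean log2 level. In R 4.3.3, limma 3.58.1 (lmFit, contrasts.fit, eBayes with an intensity trend; 8 residual and 12.1 prior degrees of freedom) was fitted to log2(intensity + 28) of all 12 arrays with 4 genotype means, and tested on simulated data. Plots used Python 3.11.15 and matplotlib 3.10.9. The number of arrays limits the precision.

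Probe sets described are the 12 largest increases and 12 largest decreases among calls whose double mutant arrays all lie on one side of the Col-0 arrays. The comparison, the lists and the rule were chosen with earlier results of these data known. An annotation gave 13513 of the 22810 identifiers 1 gene symbol and 503 several, and listed 88 of the 494 genes in 36 lists drawn up for this comparison, and neither mutated gene; since no row order was shown to be right, the lists were not used. Runs were read from hybridization times, with arrays at most 30 minutes apart in 1 run. Replicate numbers equal run numbers; the model has no block. Alternatives were the pseudocount, the dim filter, quantile normalization, the variance trend, the run as a block, the genotypes fitted, the control rows, a fold minimum and each array left out.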

Additional observations from a re-analysis of the deposited data

Results flagged for a closer look

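Of the 64 AFFX (control) identifiers kept out of the tests, 4 stood on rows that differed between pmr5 pmr6 and Col-0 in a limma fit to all rows (adjusted p under 0.05), 1 higher and 3 lower. Of the 22746 other rows 13.5% were called in that fit. The 4 rows were singled out because a signal above or below the wild-type level appeared in rows that carry control identifiers. The row labelled AFFX-DapX-5_at read 348 ± 56 in Col-0 and 200.2 ± 12.5 in the double mutant, and that labelled AFFX-r2-Ec-bioC-3_at 39 ± 18.3 and 96.8 ± 19.7 (mean ± SD, n = 3 each). Identifiers did not track values, so these rows need not be controls. Of the first 64 rows of the table, whatever their identifiers, 4 were called in that fit (6.25%), all of them higher. Groups of 3 arrays are too small for a test of outlying samples.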

How the results depend on the processing

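Under the alternatives of the processing other than the fold minimum and the arrays left out, the count of 3285 ran from 2661 without the variance trend to 3365 with quantile normalization, and the share of increases from 47.6% to 53.5%. With a replicate block (equal to the run) 3352, 612 and 1475 probe sets were called against Col-0, pmr5 and pmr6, and no count moved by over 1.5 times. Deviations of same-numbered Col-0 and double mutant arrays from their genotype means correlated at 0.01, 0.08 and 0.04. Replicates 2 and 3 did so best with their own number, and Col-0 replicate 1 did so with double mutant replicate 3 (0.014). The main model took no pairs. Since each run held 1 array of each genotype, the counts with the block are those that take the run into account. With 1 array left out in turn the counts were 2619 to 3003, 263 to 547 and 773 to 1260. A minimum of 2-fold, which can only remove calls, left 565, 76 and 158. Without the variance trend 140 and 677 were called against pmr5 and pmr6; the cause was not tested. Taking the first 64 rows of the table as the controls, an alternative chosen after seeing the data, gave these counts: 3287, 556 and 1426. All 24 probe sets described kept direction and call under every alternative in which they were tested. They were chosen from these same arrays for large and separate changes, which by itself favours this. H6, H11 and L7 fell to the filter when the dimmest 50% were left out. The correlation of same-gene rows, 0.06 as deposited, was at most 0.42 over all offsets tried and at most 0.41 in reversed order, each the highest of many values. Dim probe sets limit the comparison: in the dimmest 25% the median SE was 0.34 on the log2 scale.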

Other observations

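Rows close together in the deposited table had similar levels. After the first 64 rows, mean log2 levels of adjacent rows correlated at r = 0.22 across rows, which are not independent, and those of rows 2, 3 and 5 apart at 0.15, 0.11 and 0.05. At a distance of 7 rows r was -0.0019. The values are therefore not in random order, although no order of the identifiers that was tried met the criteria for naming them.

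The most alike stretch was a run of 51 rows, 22414 to 22464, chosen after its values were seen. Profiles of adjacent rows over the 12 arrays correlated at a mean of 0.57 there, against 0.02 over the table. Of its 50 tested probe sets, 45 had a log2 change below 0 in pmr5 pmr6 and 15 were called lower, none higher (limma, adjusted p under 0.05). Over all probe sets tested 47.1% had a change below 0, and 9.38% were called lower and 9.88% higher. The stretch was picked for alike profiles over these same arrays, so a shared direction of its rows is in part built into the choice. Its rows are not independent, and the counts are a description. The median log2 change was -0.21, in a range from -0.74 to 0.53. The median intensity of these probe sets was 2559.9, 2942.3 and 2577.2 on the Col-0 arrays and 2229.8, 1806.7 and 1915 on the pmr5 pmr6 arrays, with no overlap. In pmr5 it was 2214.5, 2251.1 and 2461.8 and in pmr6 2468.5, 2521.2 and 2658.7. The longest run of adjacent called rows in 1 direction in the whole table, 7 rows lower in pmr5 pmr6 from row 22459 to row 22465, lay at its end.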
